A study of Mus musculus with 30 samples.

Results

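Lgals3bp and 4 galectin genes, Lgals1, Lgals3, Lgals8 and Lgals9, were followed across whole forebrain and isolated microglia of mice without a working gene for the cytokine interleukin-34 (IL-34) or given an antibody against it. They are 5 of the 51752 genes in the count table and were taken by symbol. Lgals3bp was selected on measured values, namely its forebrain fold changes after deletion and after antibody, which were not the same, so its forebrain differences between arms are given as a description with no test. The 4 galectin genes were added as relatives by name and function. The microglia libraries did not enter that choice, although they come from the same animals.

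RNA came from 15 mice and 30 libraries. In the genotype experiment, 4 mice carried 1 disrupted copy of Il34 (IL34 Het, the controls, with 1 intact copy) and 3 were knockouts (IL34 KO). In the antibody experiment, wild-type mice received a control antibody, a-gp120 (anti-gp120, 4 mice), or a blocking antibody, a-IL34 (anti-IL34, 4 mice). All were perfused with saline; 1 hemisphere of the forebrain was sequenced whole, and from the other, cells were isolated by the surface protein CD11b. Ages, antibody doses and the make of the Il34 allele are not given in the sources used here. Het and anti-gp120 had 2 males and 2 females each, KO had 1 male (animal 3) and anti-IL34 had 1 female (animal 11). The experiments have separate animals, so animal 1 of Het and animal 1 of anti-gp120 are different mice. The labels do not say that animals were raised or handled as separate batches, so p-values measure the spread between these animals.

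Galectins are lectins that bind β-galactoside sugars on glycoproteins and glycolipids. They are made in the cytosol, leave the cell by a route that bypasses the classical secretory pathway, and crosslink receptors at the surface or mark damaged vesicles inside the cell. Lgals3bp encodes galectin-3-binding protein, a secreted glycoprotein of the scavenger receptor cysteine-rich family that is bound by several galectins and is known as an interferon-induced gene. In the brain, galectin-3 is best known as a gene of reactive microglia, and galectin-9 as a ligand of TIM-3, a receptor encoded by Havcr2.

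Levels are counts scaled to a common library total (CPM) after TMM scaling over the 30 libraries, given as mean ± SD. Library totals lay between 15.1 and 75.2 M counts. Il34 RNA in forebrain was 21.0 ± 2.53 CPM (n = 4) in Het and 7.46 ± 0.883 CPM (n = 3) in KO, with every KO library lower. In microglia it was 7.65 ± 2.17 CPM in Het and 6.21 ± 0.955 CPM in KO, with overlapping groups (log2 fold change -0.27, SE 0.270, edgeR-adjusted p 0.493), so that the genotype was checked in forebrain only. Csf1r, the gene of the IL-34 receptor, stood at 44.9 ± 2.86 CPM in Het forebrain and at 3988 ± 946 CPM in Het microglia (n = 4 each). Of 10 genes of homeostatic microglia, 10 were higher in isolated microglia than in forebrain of the 8 control animals, and 8 of 8 neuronal genes were lower. Itgam, the gene of CD11b itself, had 0 to 3 counts in each of the 30 libraries. The annotation places a further gene, Gm49368, on the same strand over 55809 of its 55852 bases, so Itgam does not check the isolation here. In these bulk libraries, fewer cells of a type and less RNA per cell cannot be told apart.

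On GRCm38, with the GENCODE M21 annotation, Lgals3bp (ENSMUSG00000033880) lies on chromosome 11 from 118392751 to 118402092 on the minus strand. Lgals9 (ENSMUSG00000001123) lies on the same chromosome and strand from 78962974 to 78984946. Lgals8 (ENSMUSG00000057554) runs from 12439415 to 12464944 on the minus strand of chromosome 13. Its span shares 875 bases with Heatr1 on the other strand, so a few of its reads could belong to that gene. Lgals1 (ENSMUSG00000068220) spans 78926725 to 78930465 on the plus strand of chromosome 15, and Lgals3 (ENSMUSG00000050335) spans 47367751 to 47386160 on the plus strand of chromosome 14. No other annotated gene overlaps the spans of Lgals3bp, Lgals1, Lgals3 or Lgals9.

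Because Lgals3bp and Lgals9 are both described as interferon-induced, their promoters were searched for the repeat that interferon-stimulated elements share. The search covered both strands from 250 bases before to 50 bases after the RefSeq start (GRCm38.p6), where 4 of the 5 genes had an entry. The repeat searched for was GAAA, any 2 bases, GAAA. It was found in Lgals9, at a pair of places on the other strand, and in no window of Lgals3bp, Lgals8 or Lgals3. The RefSeq start lies 22 bases from the first base of the annotated span in Lgals9 and 133 in Lgals3bp, but 3206 in Lgals8 and 6109 in Lgals3, so the windows of these last genes do not cover the start of the span given above. Of 32851 promoters of the same length, 3.44% held it. The Lgals3bp window held the same repeat with a spacer of any 3 bases, a form chosen after that promoter had been read and held by 2.75% of all promoters. The core of gamma-activated sequences, TTC, any 3 bases, GAA, was in none of the 4 windows and in 8.30% of all promoters. The sites are shown as 30 bases, 5′ to 3′ on the minus strand of each gene, with the repeat (or its reverse complement) in capitals.
Lgals9, chr11:78984960-78984989: tgacatcagcTTTCTTTTTCtctagacact
Lgals9, chr11:78984890-78984919: atagctgtggTTTCTGTTTCctagctcagc
Lgals3bp, chr11:118401957-118401986: tgtgttttctGAAAATCGAAActaggtgag
Counted from the RefSeq start, the capitals lie at -55 to -46 and 16 to 25 in Lgals9 and at -17 to -7 in Lgals3bp. These are matches of letters, with no measurement of binding.

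Per length, the 5 genes took a different order in each tissue. Counts were divided by the length of the annotated exons, in kilobases (kb). This is approximate, because the deposited gene lengths are whole spans and the counts may include intronic reads. The order between genes depends in part on this choice of length. The deposited TPM, which divide by whole spans, held 30.3 ± 3.96 for Lgals8 and 29.5 ± 4.28 for Lgals1 in Het forebrain (n = 4). There Lgals3bp followed at 19.2 ± 1.24 TPM, above Lgals9 at 6.45 ± 0.599 TPM. In Het forebrain Lgals8 was highest at 7.85 ± 0.876 CPM per exon kb (n = 4) and Lgals1 followed at 4.57 ± 0.576. Lgals9 at 2.48 ± 0.172 and Lgals3bp at 2.36 ± 0.141 did not differ beyond their spread, and Lgals3 was lowest at 0.273 ± 0.0979. Apart from that pair, each gene's lowest library lay above the next gene's highest.

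In Het microglia Lgals9 led at 68.7 ± 15.6 CPM per exon kb (n = 4), with its lowest library above the highest of Lgals3bp. In TPM the order of this pair was reversed, with Lgals3bp at 188 ± 48.3 and Lgals9 at 135 ± 17.1. Lgals3bp at 30.5 ± 8.59 and Lgals8 at 25.8 ± 5.17 overlapped, and so did Lgals1 at 16.3 ± 2.06 and Lgals3 at 15.4 ± 8.76. With anti-IL34 Lgals3bp stood first in both tissues. In forebrain of that arm it was at 10.7 ± 1.62 CPM per exon kb (n = 4), with its lowest library above the highest of Lgals8. In microglia it was at 143 ± 40.2 and was above Lgals9 (79.6 ± 20.5) within each of the 4 libraries, although the ranges of those genes overlapped. In KO microglia Lgals9 was first at 27.5 ± 1.19 (n = 3), and the ranges of the next 4 genes each overlapped with their neighbour's. In TPM Lgals1 had the highest mean there at 119 ± 39.1, and Lgals9 was at 63.7 ± 5.51.

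As a share of the 5 genes' summed CPM per exon kb, Lgals3bp made up 13.5% ± 1.12 (n = 4) in Het forebrain, 11.8% ± 1.86 (n = 3) in KO forebrain, 18.9% ± 3.35 (n = 4) with anti-gp120 and 38.4% ± 1.02 (n = 4) with anti-IL34. In microglia its share was 19.4% ± 3.21 in Het, 15.8% ± 3.81 in KO, 22.2% ± 5.83 with anti-gp120 and 50.5% ± 3.60 with anti-IL34. Lgals9 made up 44.0% ± 2.68 in Het microglia, 30.6% ± 1.26 in KO microglia, 45.2% ± 3.59 with anti-gp120 and 28.3% ± 1.01 with anti-IL34. The shares rest on exon lengths, and with whole spans the order between genes differs in part. A share moves when any of the 5 genes moves, so the levels of each gene follow.

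**Figure D1:**
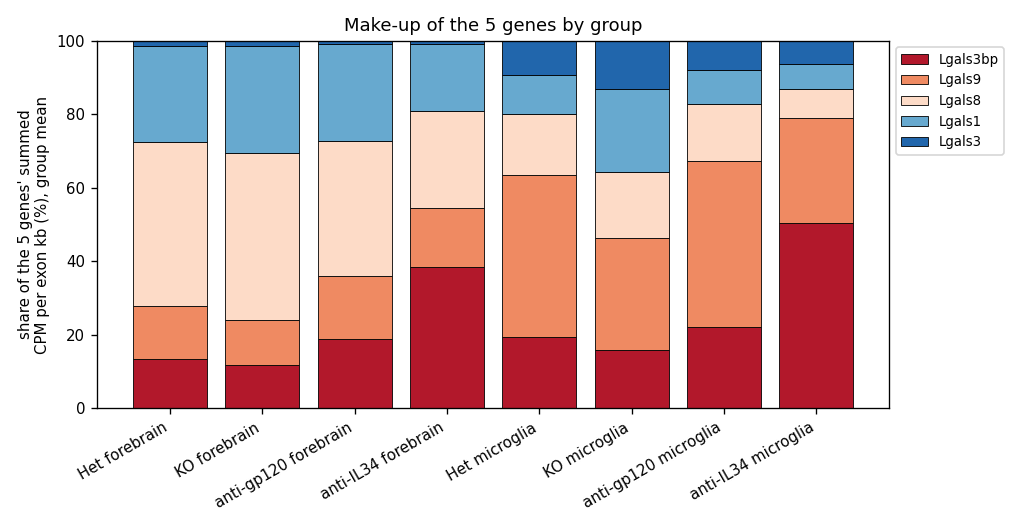
Stacked bars of the mean share (percent) that each of the 5 genes held of their summed CPM per exon kb, for the 8 tissue-by-arm groups (3 animals in KO, 4 in the other arms). Lgals8 was the largest part in Het forebrain (44.7%) and Lgals9 in Het microglia (44.0%), and Lgals3bp was the largest part in both tissues with anti-IL34 (38.4% and 50.5%). Shares rest on exon lengths, and the order between genes differs in part with whole spans.

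In control animals (Het and anti-gp120, 8 in all) every one of the 5 genes was higher in isolated microglia than in the forebrain of the same animals. Among all genes tested, 83.5% passed the threshold in this comparison (Benjamini-Hochberg adjusted p under 0.05, edgeR), 40.5% as higher in microglia. The log2 differences were 6.07 for Lgals3 (SE 0.395, edgeR-adjusted p 4.36e-10), 4.74 for Lgals9 (SE 0.130, 2.39e-14) and 3.64 for Lgals3bp (SE 0.225), which is given with no test because it contains control forebrain values that entered the choice of that gene. They were smaller for Lgals8 at 1.86 (SE 0.109, edgeR-adjusted p 1.22e-10) and Lgals1 at 1.81 (SE 0.0984, 4.82e-11). The 4 galectin genes also passed when each of the 8 animals was left out in turn.

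Lgals3bp in forebrain was low in both genotypes and high with anti-IL34. The 4 Het libraries held 6.46, 7.11, 6.30 and 7.02 CPM, and the 3 KO libraries 4.38, 5.97 and 5.75 CPM. With anti-gp120 the 4 libraries held 14.4, 11.3, 8.65 and 8.60 CPM, the first 2 of them males and the other 2 females. With anti-IL34 they held 34.3, 26.9, 26.4 and 34.9 CPM. Every KO library was thus lower than every Het library, and every anti-IL34 library higher than every anti-gp120 library. These are the values that chose the gene.

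The fitted log2 fold change of Lgals3bp in forebrain was -0.35 (SE 0.0966) for KO against Het and 1.44 (SE 0.127) for anti-IL34 against anti-gp120, a level 2.71 times that of the control antibody. The deletion effect minus the antibody effect was -1.76 (SE 0.223), and it lay between -1.95 and -1.53 when each of the 15 animals was left out in turn. Over all genes, 0.620% passed the threshold in KO forebrain, 0.717% with the antibody in forebrain and 0.0101% for the difference of the effects; nothing is read from Lgals3bp beside these shares. The nonoverlapping groups stand beside 5.14% of all genes tested whose groups did not overlap and were lower in KO, and 1.03% that were higher with the antibody. Control levels differed between the experiments as well, at 6.72 ± 0.402 CPM in Het forebrain and 10.7 ± 2.74 CPM with anti-gp120 (n = 4 each). Genotype (wild type against Het), antibody and experiment cannot be told apart in that difference.

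**Figure D2:**
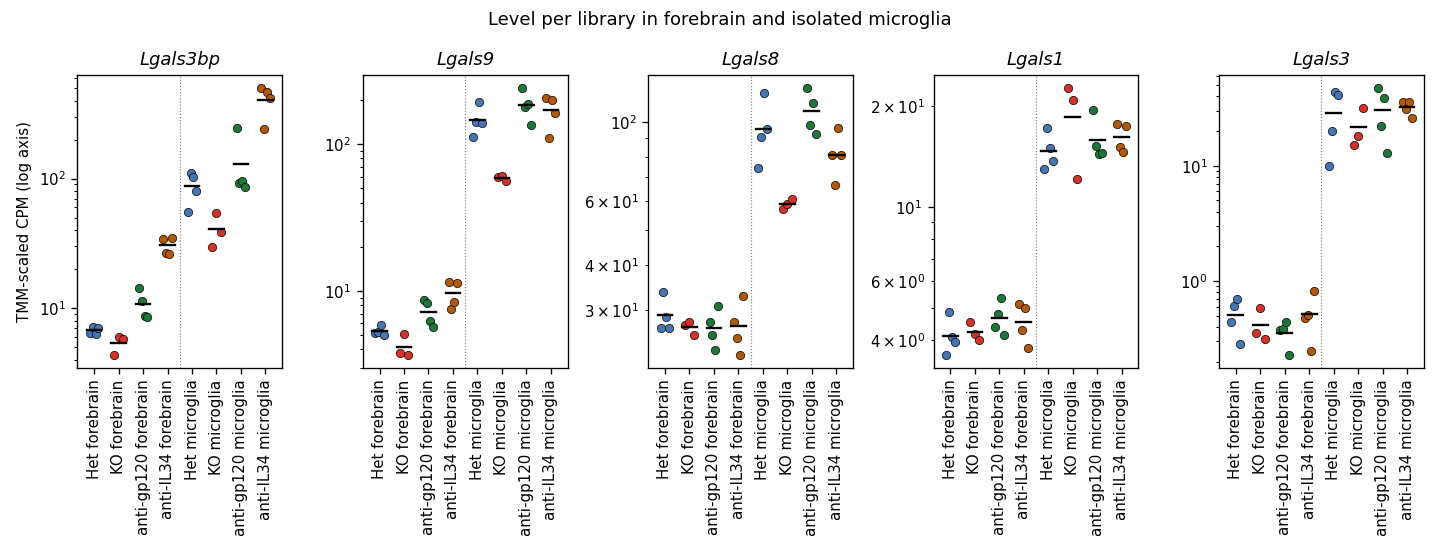
TMM-scaled CPM of each gene (log axis, its own range per panel) in every library of the 8 groups, forebrain left and microglia right of the dotted line; points are animals and bars are group means. Lgals3bp was highest with anti-IL34 in both tissues (means of 30.6 CPM and 407 CPM), and Lgals9 was lowest among the microglia groups in KO (58.8 CPM).

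In isolated microglia, which the choice of the gene did not use, Lgals3bp was lower in all KO libraries than in all Het libraries. Het held 55.5, 110, 103 and 80.0 CPM (86.9 ± 24.5, n = 4) and KO held 29.9, 53.8 and 38.9 CPM (40.9 ± 12.1, n = 3). The log2 fold change was -1.17 (SE 0.266), a level 0.445 times Het, which missed the threshold (edgeR-adjusted p 0.0559). Under the other settings the adjusted p ran from 0.00197 (DESeq2) to 0.0824 (all 15 microglia libraries in 1 fit). With 1 animal left out, the adjusted p ran from 0.0211 (without Het animal 1) to 0.360 (without KO animal 3), and it was under the threshold in 2 of 7 fits. Those fits left out Het animal 1 or 21, and 5756 of 18294 and 3115 of 18073 genes passed in them.

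With anti-IL34, Lgals3bp in microglia reached the highest levels of the series. The anti-gp120 libraries held 244, 93.2, 96.5 and 85.5 CPM (130 ± 76.3, n = 4), and the anti-IL34 libraries held 499, 243, 468 and 418 CPM (407 ± 115, n = 4). The groups met at 1 library on each side, anti-gp120 animal 1 and anti-IL34 animal 10, and were otherwise apart; 15.5% of all genes tested had groups that did not overlap here. The log2 fold change was 1.63 (SE 0.378), a level 3.10 times the control antibody, and missed the threshold (edgeR-adjusted p 0.0767). The adjusted p over the other settings ran from 0.00128 (DESeq2) to 0.0783 (RLE size factors). Without anti-gp120 animal 1 the log2 fold change was 2.18 (edgeR-adjusted p 0.0999). Over the fits without 1 animal, the adjusted p ran from 0.0228 (without anti-gp120 animal 15) to 0.239 and was under the threshold in 1 of 8. Without anti-gp120 animal 15, 6905 of 17071 genes passed.

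The deletion effect minus the antibody effect on Lgals3bp in microglia was -2.70 on the log2 scale (SE 0.553, 95% interval -3.78 to -1.62). Its unadjusted edgeR p was 0.000287 and its edgeR-adjusted p 0.654, in a comparison where 0 of 18732 genes passed with edgeR, 740 had an unadjusted p under 0.05 and 35 passed with DESeq2. DESeq2 gave Lgals3bp an adjusted p of 0.00402, and the edgeR alternatives gave 0.0620 to 0.699. Without anti-gp120 animal 1 the difference was -3.36 (edgeR-adjusted p 0.0207), the only one of the 15 fits without 1 animal that passed. Against the forebrain, the deletion effect differed by -0.78 (SE 0.313) and the antibody effect by 0.17 (SE 0.430) on the log2 scale. These tissue differences contain the forebrain values that chose the gene and were given no test.

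Lgals9, the tandem-repeat galectin that binds TIM-3, fell in KO microglia. Het microglia held 113, 141, 193 and 140 CPM (147 ± 33.4, n = 4), and KO microglia held 59.6, 60.8 and 56.0 CPM (58.8 ± 2.54, n = 3). All KO libraries lay below all Het libraries, and the KO values were close to each other. The log2 fold change was -1.30 (SE 0.196), a level 0.407 times Het (edgeR-adjusted p 0.0191). It was the only 1 of the 5 genes past the threshold with edgeR, where 5.37% of all genes were past it and 5.22% were past it and lower, and 3 of the 5 passed with DESeq2 (Lgals9, Lgals3bp and Lgals8), which called 21.4% of all genes.

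The Lgals9 call held under each of the 5 other settings, with adjusted p from 1.70e-06 (DESeq2) to 0.0258 (RLE size factors). With 1 animal left out the log2 fold change stayed between -1.38 and -1.15, but the edgeR-adjusted p rose to as much as 0.199 and passed only without Het animal 1 or Het animal 21. When these were left out, 5756 of 18294 and 3115 of 18073 genes of the whole table passed. In the other 5 fits (without Het 20, Het 23, KO 3, KO 6 or KO 24), 0 genes of the whole table passed with edgeR, while 2268 to 4465 genes had an unadjusted p under 0.05.

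Lgals9 did not follow Lgals3bp under the antibody in microglia. The anti-gp120 libraries held 241, 180, 189 and 135 CPM (186 ± 43.6, n = 4) and the anti-IL34 libraries 205, 111, 201 and 164 CPM (170 ± 43.9, n = 4). The groups overlapped, with a log2 fold change of -0.14 (SE 0.244, 95% interval -0.61 to 0.34, edgeR-adjusted p 0.720). The deletion effect minus the antibody effect was -1.14 (SE 0.333), and it missed the threshold (edgeR-adjusted p 0.720; 0.211 with DESeq2 and 0.317 to 0.747 with the edgeR alternatives).

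In forebrain Lgals9 was at 5.30 ± 0.368 CPM in Het (n = 4), 4.18 ± 0.787 in KO (n = 3), 7.22 ± 1.45 with anti-gp120 and 9.69 ± 2.02 with anti-IL34 (n = 4 each). The groups overlapped in both comparisons. The log2 fold changes were -0.30 (SE 0.131, edgeR-adjusted p 0.640) for KO and 0.35 (SE 0.155, edgeR-adjusted p 0.999) for anti-IL34. Among the galectin genes tested in forebrain, 0 of 4 passed with edgeR or DESeq2 for KO and 0 of 3 for anti-IL34. Lgals9 alone had an unadjusted edgeR p under 0.05 in each (0.0382 and 0.0451), as did 7.45% of all genes tested for KO and 4.86% for anti-IL34. The deletion effect on Lgals9 in microglia minus that in forebrain was -0.95 (SE 0.256, edgeR-adjusted p 0.0655), in a comparison where 2.98% of all genes passed; over the other settings the adjusted p ran from 0.00784 (DESeq2) to 0.101 (the animal as a replicate block). It passed in 2 of the 7 fits without 1 animal (without Het animal 1 or 21), where 5688 of 19970 and 3243 of 19924 genes passed. The antibody effect on Lgals9 differed between tissues by -0.51 (SE 0.315, edgeR-adjusted p 0.338), beside 0.0924% of all genes past the threshold.

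**Figure D3:**
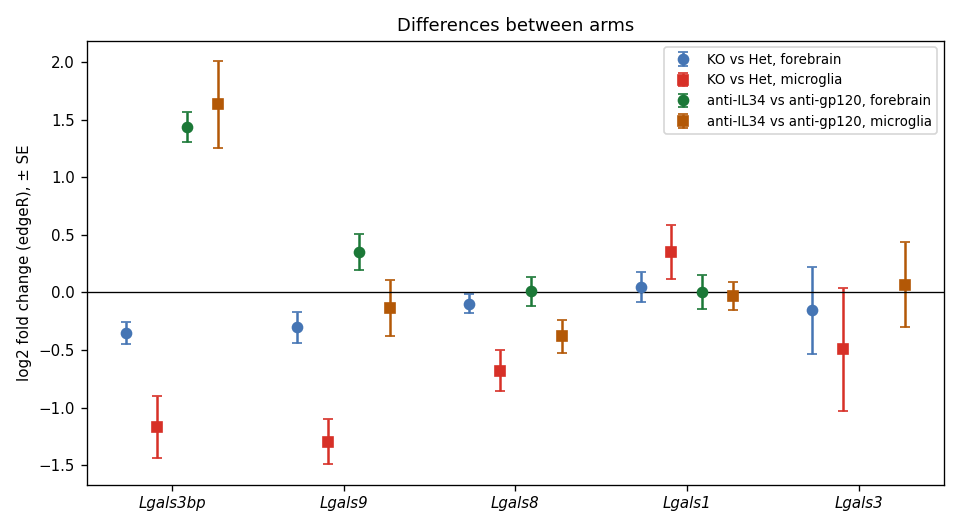
Fitted log2 fold change (edgeR, ± SE) of each gene in the 4 comparisons between arms; circles are forebrain and squares microglia, and Lgals3 has no point for the antibody in forebrain, where it did not pass the filter on low counts. Lgals3bp lies above 0 with the antibody (1.44 and 1.63) and below 0 with deletion (-0.35 and -1.17), and Lgals9 is lowest in KO microglia (-1.30).

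Lgals8, a tandem-repeat galectin that binds sugars exposed on damaged endosomes and recruits the autophagy receptor encoded by Calcoco2, had nearly the same level in all forebrain groups. Its 15 forebrain libraries lay between 22.5 and 33.6 CPM, and its group means between 26.8 and 28.9 CPM. The forebrain log2 fold changes were -0.10 (SE 0.0809, 95% interval -0.26 to 0.060) for KO and 0.0100 (SE 0.128, 95% interval -0.24 to 0.26) for anti-IL34. The sign of each changed with single animals left out.

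In microglia Lgals8 held 74.3, 90.4, 120 and 95.7 CPM in Het and 57.3, 58.9 and 60.9 CPM in KO. Every KO library was lower than every Het library, as for Lgals3bp and Lgals9; 3 of the 5 genes had nonoverlapping groups in this comparison, beside 19.7% of all genes tested that were lower in this way. The log2 fold change of Lgals8 was -0.68 (SE 0.177, edgeR-adjusted p 0.0775), with adjusted p between 0.0183 (DESeq2) and 0.0908 (RLE size factors) under the other settings and 2 of the 7 fits without 1 animal past the threshold. Those fits left out Het animal 1 or 21, and 5756 of 18294 and 3115 of 18073 genes passed in them. With the antibody the level was 107 ± 14.3 CPM for anti-gp120 and 81.0 ± 11.9 CPM for anti-IL34 (n = 4 each), and the fitted log2 difference was -0.38 (SE 0.145, edgeR-adjusted p 0.172). Those groups overlapped. Of the 5 genes, 0 passed with edgeR for the antibody in microglia, where 0.626% of all genes passed. An unadjusted p under 0.05 was given to 2 of the 5 (Lgals3bp and Lgals8) and 25.9% of all genes, and DESeq2 called 1 of the 5 (Lgals3bp) and 11.5% of all genes.

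Lgals1, which encodes the homodimeric galectin-1, varied little between the arms in forebrain. In forebrain its group means ran from 4.13 to 4.66 CPM. The log2 fold change was 0.047 for KO (SE 0.129, 95% interval -0.21 to 0.30) and 0.0044 for anti-IL34 (SE 0.145, 95% interval -0.28 to 0.29), with signs that changed when single animals were left out. In microglia Lgals1 held 12.98, 17.2, 14.9 and 13.7 CPM in Het and 22.6, 20.8 and 12.1 CPM in KO. Of the KO libraries 2 lay above and 1 below the whole Het range, and the log2 fold change of 0.35 did not pass (SE 0.237, edgeR-adjusted p 0.319). With the antibody it was -0.028 (SE 0.120, 95% interval -0.26 to 0.21, edgeR-adjusted p 0.887).

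Lgals3, which encodes the chimera-type galectin-3, was scarce in forebrain and variable in microglia. The 15 forebrain libraries held 4 to 34 counts, or 0.231 to 0.828 CPM. At this depth no difference between arms was detectable in forebrain. The log2 fold change for KO was -0.16 (SE 0.380, 95% interval -0.90 to 0.59). For anti-IL34 the exact 2-sided permutation test of the difference in mean log2 CPM gave p = 0.314 (n = 4 each). Microglia held 9.93, 20.0, 43.3 and 41.1 CPM in Het and 15.2, 18.1 and 31.7 CPM in KO. They held 47.1, 22.3, 38.6 and 12.8 CPM with anti-gp120 and 35.5, 31.1, 35.4 and 26.2 CPM with anti-IL34. The spread within Het and anti-gp120 was wider than any difference between group means. The log2 fold changes were -0.49 for KO (SE 0.533, edgeR-adjusted p 0.531) and 0.068 for anti-IL34 (SE 0.367, edgeR-adjusted p 0.913).

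Markers of other cell types differed between arms in the same microglia isolates. Of the genes of neurons, astrocytes and the oligodendrocyte lineage, 8 of 8 in each list were higher in KO than in Het, with median log2 fold changes of 0.96, 0.95 and 0.85, and 8 of 8 in each were higher with anti-IL34 than with anti-gp120, with medians of 0.95, 0.69 and 0.66. None of these passed the edgeR threshold singly. The summed level of the 8 neuronal genes ran from 416 to 1478 CPM in Het, 1480 to 2154 in KO, 589 to 2114 with anti-gp120 and 1516 to 2485 with anti-IL34. Astrocyte genes summed to 3146 to 11488 CPM in Het, 12603 to 15889 in KO, 4863 to 18904 with anti-gp120 and 10661 to 19451 with anti-IL34. Oligodendrocyte genes summed to 3016 to 10227, 8152 to 18272, 4033 to 9993 and 6264 to 13247 CPM in the same order.

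Homeostatic microglia genes fell in the isolates, with 10 of 10 past the threshold in KO (median log2 fold change -1.60) and 7 of 10 with anti-IL34 (median -1.25), all lower, beside 5.22% and 0.603% of all genes. In the 5 KO fits without 1 animal in which no gene of the table passed, 0 of 10 did. With anti-IL34, 0 of 10 passed in 6 of the 8 fits without 1 animal, and 9 and 10 passed without anti-IL34 animal 11 and anti-gp120 animal 15. Over all genes, 514 of 17001 and 6905 of 17071 passed when these animals were left out. In all 7 KO and 8 antibody fits without 1 animal, 10 of 10 stayed below 0, with medians of -1.66 to -1.44 for KO and -1.53 to -1.04 for anti-IL34. Their sum ran from 11769.6 to 20313 CPM in Het, 4560 to 4950 in KO, 15085 to 19977 with anti-gp120 and 6070 to 9493 with anti-IL34. The 10 genes of border macrophages, which also carry CD11b, summed to 1344 to 1527 CPM in Het, 618 to 1146 in KO, 1161 to 1827 with anti-gp120 and 599.5 to 878 with anti-IL34. Of these genes 9 of 10 were below 0 in each comparison, with medians of -0.17 and -0.49, and 1 passed in KO and 0 with anti-IL34. The 10 neutrophil and monocyte genes summed to 44.3 to 66.1 CPM in Het, 45.2 to 106 in KO, 64.8 to 385 with anti-gp120 and 253 to 574 with anti-IL34. The 8 choroid plexus genes summed to 2825 to 6060, 2267 to 4947, 90.0 to 211 and 182 to 3547 CPM in the same order. The 10 genes of fibroblasts and mural cells summed to 815 to 1398, 773 to 1976, 1145 to 1265 and 1132 to 1589 CPM, with 9 of 9 tested above 0 in KO (median 0.42) and 8 of 9 with anti-IL34 (median 0.23). The 8 endothelial genes summed to 759 to 1347, 898 to 1139, 849 to 1404 and 984 to 1589 CPM, with 7 of 8 above 0 in each (medians 0.080 and 0.19). None of either list passed. Apart from Igf2 of the fibroblast list, no marker of these lists was at 0 in every library of a microglia group. The part of these differences in the levels of the 5 genes was not tested.

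Genes of the interferon response were higher with anti-IL34, the arm where Lgals3bp was highest. With anti-IL34 in forebrain 14 of the 19 genes tested of a list of 20 were past the threshold and higher, 0 were lower, and the median log2 fold change was 1.96, beside 0.00079 over all genes, of which 0.192% were past the threshold and higher. Oasl2, a 2′-5′-oligoadenylate synthetase-like gene, rose from 4.30 ± 1.88 to 38.0 ± 18.3 CPM (fitted log2 change 2.95, SE 0.309, edgeR-adjusted p 0.00121). Bst2, encoding the virus-tethering protein tetherin, rose from 1.27 ± 0.301 to 5.12 ± 1.79 CPM (1.89, SE 0.245, edgeR-adjusted p 0.00524), and Ifi44 from 1.56 ± 0.644 to 8.60 ± 3.45 CPM (2.32, SE 0.317, edgeR-adjusted p 0.00671; n = 4 for all). With 1 animal left out, the genes of the list past the threshold numbered 2 without anti-IL34 animal 11, 5 when anti-gp120 animal 7 was omitted, 9 when animal 8 of that arm was, and 10 to 17 in the other 5 fits, while all list genes tested stayed above 0 and the median lay between 1.71 and 2.21. Of the 3 genes named, Ifi44 lost its call without anti-IL34 animal 11 (adjusted p 0.0851).

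With anti-IL34 in microglia 20 of 20 interferon genes were above 0 with a median of 1.93, and 1 passed, the nucleotide kinase gene Cmpk2 (13.3 ± 2.60 to 47.3 ± 17.1 CPM, n = 4 each, fitted log2 change 1.71, SE 0.275, edgeR-adjusted p 0.0465). Cmpk2 lost its call in 6 of the 8 fits without 1 animal (all but those without anti-gp120 15 or anti-IL34 11), with adjusted p up to 0.225. Over the list, 18 of 20 passed without anti-gp120 animal 15, 1 when anti-IL34 animal 11 was omitted and 0 in the other 6 fits, and DESeq2 called 18 of 20. Over all genes, 6905 of 17071 passed without anti-gp120 animal 15 and 514 of 17001 without anti-IL34 animal 11. With all animals, DESeq2 called 11.5% of all genes. In KO microglia 19 of 20 were below 0 with a median of -0.59, and in KO forebrain 13 of 18 with a median of -0.17. In each, 0 passed with edgeR, 7 and 2 had an unadjusted p under 0.05, and 2 and 0 passed with DESeq2. Over all genes, 5932 of 18185 in KO microglia and 7.45% in KO forebrain had such a p. DESeq2 called 21.4% of all genes in KO microglia and 178 of 19343 in KO forebrain. In KO microglia 1 interferon gene passed, as higher, without Het animal 1, where 5756 of 18294 genes passed. Without KO animal 3 the median in KO forebrain was 0.10, with 11 of 18 above 0. The deletion effect minus the antibody effect was below 0 for 20 of 20 in forebrain (median -2.13) and for 20 of 20 in microglia (median -2.34), and 0 passed in either with edgeR.

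By library, the list's summed level in microglia was 906 CPM in anti-gp120 animal 1 and 346, 376 and 382 CPM in the other 3 of that arm. It was 812 CPM in anti-IL34 animal 10 and 1411, 1910 and 2169 CPM in the other 3 of that arm. The same pair of libraries held nearly the same Lgals3bp level (244 and 243 CPM). In KO microglia the list summed to 362 CPM in animal 6, whose Lgals3bp was the highest of its arm (53.8 CPM), and to 191 and 199 CPM in animals 3 and 24. The orders were not the same throughout: anti-IL34 animal 11 held more Lgals3bp (468 CPM) than animal 24 (418 CPM) at a lower sum of the list (1411 against 1910 CPM). For Lgals9 the 3 KO microglia libraries lay within 56.0 to 60.8 CPM over the same range of the list. These are levels side by side over libraries that share scaling and depth, with no test.

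**Figure D4:**
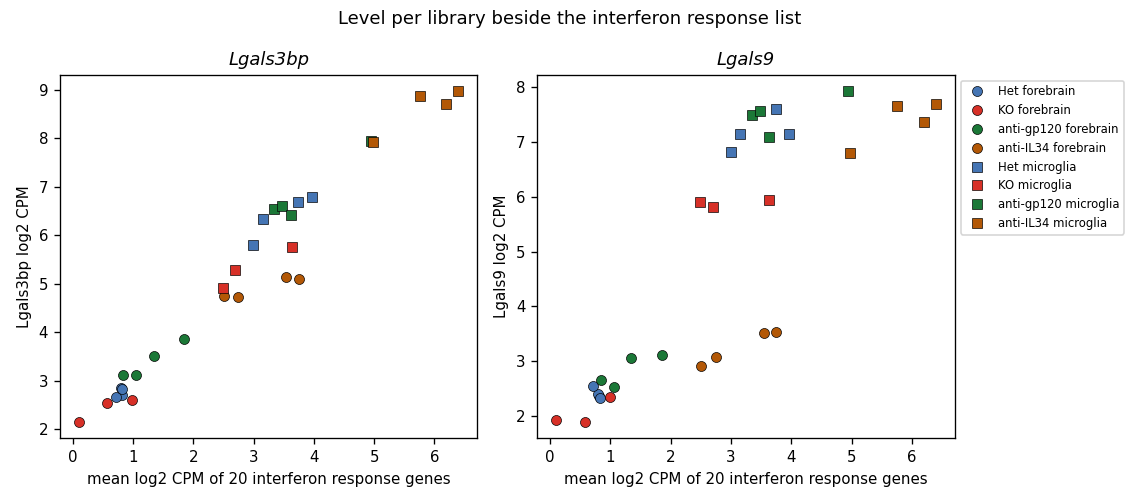
Log2 CPM of Lgals3bp (left) and Lgals9 (right) against the mean log2 CPM of 20 interferon response genes, 1 point per library; circles are forebrain, squares microglia, and colours the 4 arms. Anti-gp120 animal 1 and anti-IL34 animal 10 lie on each other in the microglia points of Lgals3bp (244 and 243 CPM), and the 3 KO microglia libraries of Lgals9 lie below the other microglia libraries.

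The pattern of each gene over the 8 groups was compared with 16047 other genes of at least 1 CPM, by the root mean square difference of group mean log2 CPM after centring each gene. The 8 groups include the forebrain groups whose values chose Lgals3bp, so its nearest genes are a description and no independent support. Nearest to Lgals3bp were Rnf213 (0.214), Mx1 (0.263), Phf11d (0.284), Nlrc5 (0.289) and Ifi27l2a (0.303). Mx1, for example, went from 1.37 ± 0.322 to 5.74 ± 2.73 CPM with the antibody in forebrain and from 16.5 ± 11.3 to 72.3 ± 28.0 CPM in microglia (n = 4 each). Nearest to Lgals9 were Gm12185 (0.111), Uba7 (0.161) and B2m (0.211), and nearest to Lgals8 were Ern1 (0.0520), Ankrd13a (0.0535) and Snap23 (0.0539). Lgals1 was nearest to Tgfb3, Ntn4 and Syne2 (0.0708 to 0.0759), and Lgals3 to Myh11, Acta2 and C3 (0.195 to 0.224). A gene that varies little has many near neighbours by this measure, so its values are not comparable between Lgals8 or Lgals1 and Lgals3bp.

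Of 26 genes for reported galectin receptors and partners, 24 were tested in KO microglia and 5 were past the threshold, all lower, beside 5.22% of all genes that were past it and lower. The median log2 fold change of the 24 was -0.30, beside 0.019 over all genes. DESeq2 called 9 of the 24, beside 21.4% of all genes. Trem2, a lipid-sensing receptor of microglia, fell from 161 ± 29.6 (n = 4) to 53.8 ± 1.90 CPM (n = 3; fitted log2 change -1.56, SE 0.173, edgeR-adjusted p 0.0136). Tlr4, the endotoxin receptor gene, fell from 65.5 ± 10.5 to 30.7 ± 2.15 CPM (-1.07, SE 0.156, edgeR-adjusted p 0.0172), and Lag3, encoding an inhibitory receptor, from 134 ± 38.9 to 42.1 ± 6.86 CPM (-1.68, SE 0.267, edgeR-adjusted p 0.0216). The other 2, named after their values were seen, were Havcr2, encoding TIM-3 (-1.503, SE 0.251, edgeR-adjusted p 0.0246), and Mertk, encoding a receptor for engulfing dying cells (-1.02, SE 0.184, edgeR-adjusted p 0.0291). Each of the first 3 lost its call in the same 5 of the 7 fits without 1 animal as Lgals9, with adjusted p up to 0.213. In those 5 fits 0 partner genes passed. Without Het animal 1, 10 passed lower and 1 higher, beside 2876 lower and 2880 higher of 18294 genes. Without Het animal 21, 9 passed lower and 1 higher, beside 1877 lower and 1238 higher of 18073 genes.

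In KO forebrain 2 of 23 partner genes passed, both lower: Trem2 (log2 fold change -1.17, SE 0.181, edgeR-adjusted p 0.00855) and Ptprc, encoding CD45 (-0.74, SE 0.133, edgeR-adjusted p 0.0239), where 0.615% of all genes were past the threshold and lower. DESeq2 called 4 of the 23, beside 178 of 19343 genes. Trem2 lost its call without KO animal 6 (adjusted p 0.0641), and Ptprc lost its call without Het 1, 21 or 23 or KO 3 or 6 (adjusted p 0.0623 to 0.251). In the same forebrain libraries 9 of 10 homeostatic microglia genes were past the threshold and lower (median -1.33), as were 4 of 8 oligodendrocyte genes; their part in these values was not tested. With anti-IL34 in forebrain 2 of 21 passed, both lower: Trem2 (-1.23, SE 0.177) and Havcr2 (-1.18, SE 0.171), each with an edgeR-adjusted p of 0.00843, where 0.525% of all genes were past the threshold and lower. DESeq2 called 5 of the 21 there, beside 198 of 17143 genes. Without anti-IL34 animal 11 or anti-gp120 animal 7 neither Trem2 (adjusted p 0.102 and 0.0532) nor Havcr2 (0.0502 and 0.0568) passed, and Havcr2 did not pass without anti-gp120 animal 1 (0.0553); 4 partner genes passed as lower when anti-IL34 animal 2 was omitted. Havcr2 went from 3.36 ± 0.267 to 1.47 ± 0.267 CPM there (n = 4 each), while its ligand gene Lgals9 stood at 7.22 and 9.69 CPM. Of the homeostatic microglia genes 9 of 10 were past the threshold and lower there too (median -1.53), and their part was not tested. With anti-IL34 in microglia 0 of 24 passed with edgeR, 9 had an unadjusted p under 0.05 and 8 passed with DESeq2, with 16 of 24 below 0 and a median of -0.25. Over all genes there, 25.9% had such a p and DESeq2 called 11.5%. Without anti-gp120 animal 15, 9 passed lower and 1 higher, beside 3334 lower and 3571 higher of 17071 genes. Without anti-IL34 animal 11, 1 passed lower, beside 472 lower of 17001 genes. In the other 6 fits 0 partner genes passed.

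Of 16 genes for the enzymes that build or cap galectin-binding sugars, 3 fell in KO microglia and 0 rose (median log2 fold change -0.30), where 5.22% of all genes were past the threshold and lower. DESeq2 called 5 of the 16, beside 21.4% of all genes. Mgat1, which opens the path to complex N-glycans, fell from 122 ± 7.75 (n = 4) to 60.6 ± 1.62 CPM (n = 3; -0.996, SE 0.111, edgeR-adjusted p 0.0136). Gcnt1, which branches O-glycans, fell from 98.9 ± 12.3 to 38.4 ± 6.17 CPM (-1.34, SE 0.165, edgeR-adjusted p 0.0139), and Mgat4a, a branching enzyme of N-glycans, from 279 ± 74.0 to 114 ± 9.60 CPM (-1.28, SE 0.239, edgeR-adjusted p 0.0323). Each lost its call in those 5 fits, with adjusted p up to 0.279. Without Het animal 1, 6 enzyme genes passed lower and 1 higher, beside 2876 lower and 2880 higher of 18294 genes. Without Het animal 21, 4 passed lower and 1 higher, beside 1877 lower and 1238 higher of 18073 genes. With edgeR, 0 of 16 passed in KO forebrain or with the antibody in forebrain, where 3 and 1 had an unadjusted p under 0.05 and DESeq2 called 0, and no fit without 1 animal changed this. Over all genes, 7.45% and 4.86% had such a p. With the antibody in microglia 0 of 16 passed with edgeR, 6 had an unadjusted p under 0.05 and 6 passed with DESeq2. Over all genes there, 25.9% had such a p and DESeq2 called 11.5%. Without anti-gp120 animal 15, 7 passed there as lower and 1 as higher, beside 3334 lower and 3571 higher of 17071 genes. Without anti-IL34 animal 11, 1 passed as lower, beside 472 lower of 17001 genes.

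Of 7 other galectin and galectin-related genes, 3 had enough counts to be tested, and with edgeR 0 passed in any of the 4 comparisons between arms. In KO microglia 1 of them had an unadjusted p under 0.05 and passed with DESeq2, and in the other 3 comparisons 0 did either. Over all genes in KO microglia, 5932 of 18185 had such a p and DESeq2 called 21.4%. Lgals4 was 1.71 higher and Lgalsl 1.12 lower on the log2 scale in control microglia than in forebrain (edgeR-adjusted p 3.05e-07 and 5.90e-06). Lgalsl, a galectin-related gene whose product lacks sugar binding, was at 94.6 ± 3.50 CPM in Het forebrain and 41.4 ± 10.6 CPM in Het microglia (n = 4 each). Lgals2, Lgals7 and Grifin had group means of at most 0.256 CPM.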

How the data were processed

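The authors deposited unnormalised read counts per gene and TPM values for 21061 genes; per the submitters' processing notes, STAR 2.7.5c, featureCounts 1.6.3, R 4.4.0 and GRCm38 were used. The deposited Length, of another unit (bases), equals the whole gene span for 51183 of 51498 genes matched to GENCODE M21, so counts may include intronic reads, and strand use is not given in the sources used here. TPM uses these spans and was not tested. The deposited sheet (animal numbers, other unit) matched the labels in 30 of 30 libraries. Not used were 6 count and 6 TPM columns of no labelled sample.

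Tests on the counts used edgeR 4.0.16 under R 4.3.3 (quasi-likelihood F test, TMM, default expression filter, sex as covariate, Benjamini-Hochberg at 0.05; SE is the log2 fold change over the square root of F, and 95% intervals are normal). Log2 CPM used a prior count of 2. Alternatives were DESeq2 1.42.0, RLE factors, no filter, no sex terms, 1 shared fit per tissue, the animal as replicate block and leaving out each animal.

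The paired libraries come from the same animal; their deviations from group means had a median correlation of 0.109 (0.0394 to 0.172), against -0.0373 for different animals. No pair of libraries in a group agreed within sampling noise (42 pairs, lowest chi-square per degree of freedom 5.48).

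The 5 genes and all lists were chosen with earlier results of these data known. Named were the 5 genes, Il34, Csf1r, up to 3 list genes per direction with the smallest p among those past the threshold, and the nearest genes by pattern. Promoter sequences are from RefSeq (GRCm38.p6).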

Additional observations from a re-analysis of the deposited data

Results flagged for a closer look

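In anti-gp120 microglia, animal 1 stood far above the other 3 animals of its group in 2 of the 5 genes. Its Lgals3bp level was 244 CPM, and its gap to the next library was 0.931 of the group's range, above the 95% critical value of Dixon's test for 4 samples. Its Lgals1 level was 19.5 CPM, with a gap of 0.850 of the range. Of 30 group values checked, 2 were flagged, and chance flags about 1 in 20. Without this animal the antibody effect on Lgals3bp in microglia was 2.18 on the log2 scale in place of 1.63.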

How the results depend on the processing

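The number of animals limits all comparisons, and low counts limit Lgals3 in forebrain. Of the log2 fold changes of the 5 genes, Il34 and Csf1r under all alternatives, 783 were unchanged, 31 passed the threshold newly, 16 lost it and 39 changed sign. Unchanged means the same direction and side of the threshold, and a missing adjusted p counted as not past it. Lgals3bp in its forebrain comparisons of arms was judged without the threshold. There unchanged means the same direction and a shift smaller than the largest SD of log2 CPM within a forebrain group. The cause was not tested. The replicate block (animal) changed no call of the 5 genes, but left 0 genes past the threshold for the tissue difference of either effect, in place of 599 and 17.

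For KO against Het the genes past the threshold numbered 381 without a filter on low counts in forebrain (120 as reported) and, in microglia (976), 3887 with DESeq2, 1993 without the filter, 2189 without sex terms and 2734 with all 15 libraries in 1 fit. For the antibody they were 198, 349 and 204 in forebrain (123) with DESeq2, no filter and 1 fit, and 2015, 819, 983 and 988 in microglia (110) with DESeq2, no filter, no sex terms and 1 fit. The tissue difference of the deletion effect gave 3635 (DESeq2), 1569 (no filter) and 2400 (no sex terms), and that of the antibody effect 1092, 1352 and 222, with 48 by RLE factors. The difference of the effects gave 28, 114 and 4 in forebrain (2) with DESeq2, no filter and no sex terms, and 35 and 1 in microglia (0) with DESeq2 and no filter. Leaving out 1 animal gave 55 to 117 (KO, forebrain), 0 to 5756 (KO, microglia), 25 to 126 (antibody, forebrain), 0 to 6905 (antibody, microglia), 0 to 5688 and 0 to 5565 (tissue differences of deletion and antibody) and 2 to 33 and 0 to 5 (difference of the effects in forebrain and microglia).

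Some log2 fold changes changed sign. Without sex terms Lgals1 gave -0.018 for the antibody in forebrain, 0.027 in microglia and 0.031 for the tissue difference. With 1 animal left out, Lgals1 ran from -0.093 to 0.17 for KO in forebrain, -0.074 to 0.062 for the antibody in forebrain, -0.098 to 0.066 in microglia, -0.18 to 0.084 for its tissue difference and -0.071 to 0.15 for the forebrain difference of the effects. Lgals3 ran from -0.56 to 0.11 for KO in forebrain, -0.18 to 0.46 for the antibody in microglia, and -0.86 to 0.21 and -0.85 to 0.054 for the tissue differences of deletion and antibody. Lgals8 ran from -0.17 to 0.012 for KO in forebrain, -0.085 to 0.14 for the antibody in forebrain and -0.24 to 0.0095 for their difference. Lgals9 ran from -0.39 to 0.041 for the antibody in microglia, Lgals3bp from -0.15 to 0.60 for the tissue difference of the antibody effect, Il34 from -0.45 to 0.049 for KO in microglia and -0.021 to 0.13 for the antibody in forebrain, and Csf1r from -0.25 to 0.080 for the tissue difference of the deletion effect.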
